A study of Arabidopsis thaliana with 15 samples.

Results

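The transcripts of Arabidopsis thaliana roots, the model plant of molecular genetics, were compared between 8 h after a supply of ammonium and the moment before any nitrogen was given. The comparison takes the 3 samples of each group by their labels, so 6 of the 15 samples of the series, and all 22746 probe sets of the Affymetrix ATH1 array. All plants were wild type (Columbia-0), raised hydroponically until growth stage 5.10, and then spent 26 h without nitrogen. The roots before nitrogen were taken at the end of that period, and the ammonium roots after a further 8 h with 1 mM ammonium. The series also holds roots 1.5 h after ammonium and 1.5 h and 8 h after 1 mM nitrate, again with 3 biological replicates each, and each sample pooled the roots of at least 5 plants. The salt that carried the ammonium was not stated. No roots left without nitrogen were harvested at 8 h, so ammonium, the time since the first harvest and the time of day cannot be told apart in this comparison.

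Ammonium that enters a root cell is built into the amide group of glutamine by glutamine synthetase, and glutamate synthase passes that nitrogen on to 2-oxoglutarate, a carbon skeleton from the tricarboxylic acid cycle. Glutamine then gives its amide nitrogen to asparagine, nucleotides and other compounds. Roots kept without nitrogen hold high levels of transcripts for uptake and recycling of nitrogen, such as the high-affinity nitrate transporter NRT2.5, and these fall when nitrogen returns. Transcription factors of the HHO group, a branch of the GARP family, repress such starvation genes. Many genes best known from these pathways, among them those of ammonium transporters and glutamine synthetase, are not analysed here because the annotation used named 1 gene for only 13513 of the probe sets.

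Levels are RMA values on the log2 scale, as deposited, and a change is the difference of 2 group means ± its standard error in limma's fit (n = 3 per group). A gene is said to have risen or fallen where limma's adjusted p was below 0.05. The values carry no detection call, and the lower quartile of a sample lay between 4.36 and 4.52. Where a group's mean was under 5 log2 that level was not shown to be above background, and no fold is given. Across all probe sets, 4008 (17.6%) were called between ammonium at 8 h and the roots before nitrogen. Of these 1755 (7.72%) were higher and 2253 (9.91%) lower with ammonium. The median change over all probe sets was -0.0269 log2. A change of at least 2-fold was found for 380 probe sets (1.67%), 259 higher (1.14%) and 121 lower (0.532%), so falls were more frequent but large rises outnumbered large falls. The median size of a called change was 0.428 log2. The median standard error of a difference was 0.0921 log2, and the number of arrays limits this precision.

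Within groups the samples had a Pearson r of 0.9935 to 0.9978 over the probe sets. Array weights, which estimate how closely each array follows the fit, were 0.252 for replicate 1 and 7.64 for replicate 3 of the roots before nitrogen and between 0.565 and 1.57 for the other arrays. As a check of the tissue, 6 of 7 root hair genes, which encode cell wall proteins and peroxidases of root hairs, had means between 9.01 and 12.71 log2 in both groups. Over all 7, of which 0 lay under 5 log2 in both groups, the mean level was 9.92 to 9.93 log2 before nitrogen. In the ammonium samples it was 9.9 to 10.13 log2. The 5 measured genes of leaf photosynthesis lay between 3.69 and 6.78. Mean levels of the photosynthesis genes were 5.22 to 5.39 in the samples before nitrogen and 5.24 to 5.35 with ammonium, and LHCB4.1, of the light-harvesting antenna, was the one called (0.34 ± 0.11 log2, adjusted p = 0.044). Its call was lost in 4 of the 6 fits without 1 sample (adjusted p = 0.078 to 0.15), with a second quantile normalization (0.054), with median centring (0.059) and with only the groups compared (0.057). Of 2 endodermal genes, AT2G48130 fell by 0.77 log2 (1.7-fold, adjusted p = 0.00021) and the peroxidase gene AT5G66390 went from 9.99 to 9.97. Fewer cells of a type and less RNA per cell cannot be told apart in these whole-root samples.

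**Figure D1:**
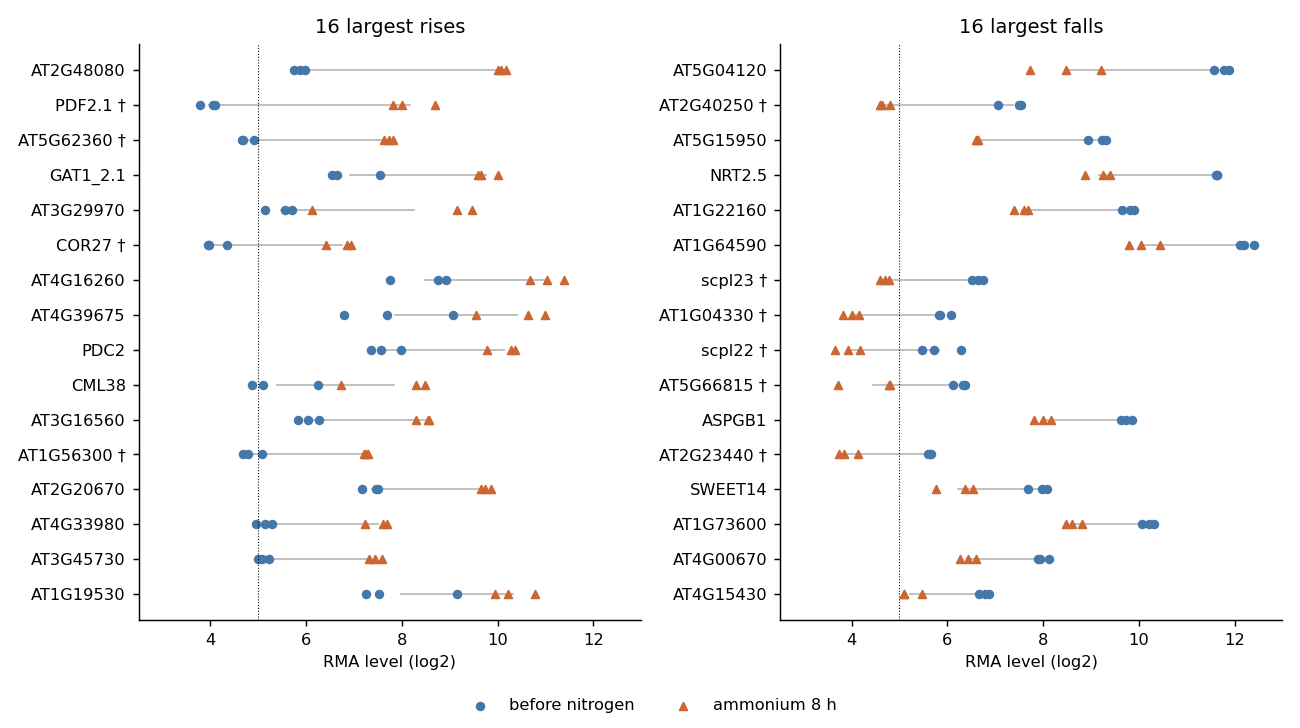
RMA levels (log2) of the 16 largest rises and 16 largest falls among named genes, with circles for the 3 samples before nitrogen and triangles for the 3 samples at 8 h of ammonium, and a grey line joining the group means. The dotted line marks 5 log2, a dagger marks genes with a group mean below it, and the rises of AT3G29970 and CML38 show 1 ammonium sample close to the samples before nitrogen.

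The genes with the largest changes were taken among called probe sets with 1 named gene and no overlap between the 3 values of each group, a separation found in 6901 of all probe sets (30.3%). The 16 largest rises ran from 2.34 to 4.22 log2 and the 16 largest falls from -1.55 to -3.28 log2. The largest rise was that of AT2G48080, which encodes a protein of the 2-oxoglutarate and iron-dependent oxygenase family. Its levels were 5.87, 5.98 and 5.74 log2 before nitrogen and 10, 10.18 and 10.08 log2 with ammonium. The groups lay far apart and each was tight, with a change of 4.22 ± 0.09 log2 (18.6-fold, adjusted p = 2.1e-13). The largest fall was that of AT5G04120, a gene of the phosphoglycerate mutase family, from 11.57, 11.78 and 11.89 log2 to 7.73, 8.47 and 9.21 log2. Here the ammonium samples spread over a wide range, all below the samples before nitrogen, and the fall was by 3.28 ± 0.49 log2 (9.71-fold, adjusted p = 0.00021).

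Among genes of amide nitrogen, proline and CTP, 4 of 8 rose, 1 fell and 3 were not called, with a median change of 0.317 log2. That is 62.5% called, against 17.6% of all probe sets. The list was added after values were seen, so its share is descriptive and not a test. GAT1_2.1 (AT1G15040) encodes a class I glutamine amidotransferase-like protein, an enzyme type that takes the amide nitrogen of glutamine. Its levels went from 6.64, 6.55 and 7.54 log2 to 9.65, 10 and 9.60 log2. All ammonium samples lay above all samples before nitrogen, of which replicate 3 was highest, and the rise was by 2.84 ± 0.28 log2 (7.16-fold, adjusted p = 2.9e-06). A second, dimmer probe set of the gene rose by 1.24 ± 0.31 log2 (adjusted p = 0.0099), a call lost without replicate 1 of the ammonium samples (adjusted p = 0.057). CTP synthase uses glutamine to make the nucleotide CTP, and its gene AT1G30820 went from 9.49, 9.40 and 9.19 log2 to 11.69, 11.66 and 11.48 log2. That rise was by 2.25 ± 0.10 log2 (4.75-fold, adjusted p = 5.6e-10). AT4G20320, another CTP synthase gene, rose by 0.53 ± 0.10 log2 (adjusted p = 0.0012), while AT4G02120, a further such gene, changed by 0.10 log2 without a call. AT5G38710 encodes a proline dehydrogenase, which starts the breakdown of proline in mitochondria. Its levels rose from 6.03, 5.92 and 6.05 log2 to 7.87, 8.27 and 8.00 log2, by 2.04 ± 0.13 log2 (4.13-fold, adjusted p = 2.9e-08).

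The asparaginase gene ASPGB1 (AT3G16150), whose enzyme releases ammonium from asparagine, fell. Its levels were 9.86, 9.63 and 9.74 log2 before nitrogen and 7.81, 7.99 and 8.16 log2 with ammonium, a fall by 1.76 ± 0.15 log2 (3.38-fold, adjusted p = 7.2e-07). The other asparaginase gene, ASPGA1, stood at 9.37 and 9.39 log2 in the same groups (0.03 ± 0.08 log2, adjusted p = 0.86). Set against 1.5 h of ammonium, neither GAT1_2.1 (adjusted p = 0.17), AT1G30820 (0.74) nor AT5G38710 (0.44) differed by the test at 8 h, whereas ASPGB1 was lower by a further 0.87 log2 (adjusted p = 0.0013). Set against nitrate at 8 h, the 3 genes that rose most stood higher with ammonium, GAT1_2.1 by 1.87 log2 (adjusted p = 0.00021), AT5G38710 by 1.70 log2 (1.8e-07) and AT1G30820 by 1.30 log2 (2e-07). ASPGB1 stood at 7.99 log2 with ammonium and 8.10 log2 with nitrate (adjusted p = 0.74).

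**Figure D2:**
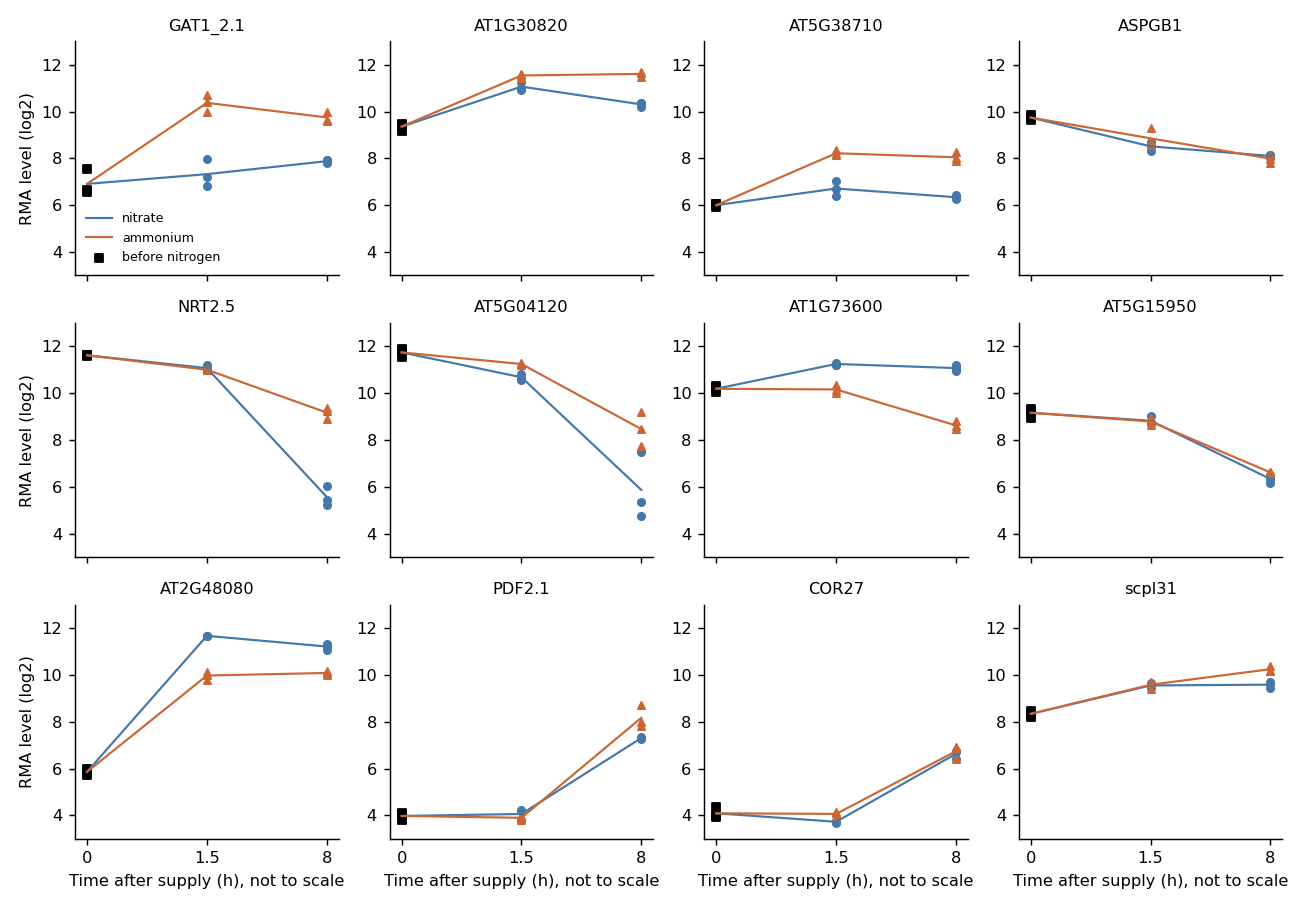
RMA levels (log2) of 12 genes before nitrogen (squares) and at 1.5 h and 8 h of ammonium (triangles) or nitrate (circles), one symbol per sample with lines through the group means and time not to scale. GAT1_2.1, AT1G30820 and AT5G38710 are high by 1.5 h of ammonium, PDF2.1 and COR27 are high only at 8 h, and NRT2.5 falls less with ammonium than with nitrate.

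Of 12 nitrate transporter genes 3 fell, 9 were not called and 0 rose (limma, with 5 of the 12 below an unadjusted p of 0.05). That is 25% called, against 17.6% of all probe sets, with 3 under 5 log2 in both groups. The median change was -0.166 log2. NRT2.5 (AT1G12940), the high-affinity transporter of long starved roots, stood at 11.61, 11.63 and 11.63 log2 before nitrogen and at 9.39, 9.26 and 8.88 log2 with ammonium. The fall was by 2.45 ± 0.16 log2 (5.45-fold, adjusted p = 3.8e-08). The level at 1.5 h of ammonium was 11.01 log2, so most of the fall came between 1.5 h and 8 h (-1.83 log2, adjusted p = 2.9e-06). With nitrate at 8 h the level was 5.57 log2, and ammonium roots stood 3.60 log2 above it (adjusted p = 4.9e-10). AT2G26690 (NPF6.2), a potassium-linked nitrate transporter of the NRT1/PTR family, fell by 0.91 ± 0.14 log2 (1.88-fold, adjusted p = 0.00028). AT1G68570 of the same family fell by 0.44 ± 0.08 log2 (adjusted p = 0.001). Without replicate 2 of either group 4 members fell.

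Among 5 regulators of the nitrogen response, 3 rose and 0 fell (limma, with 3 of 5 below an unadjusted p of 0.05). All 3 were HHO genes. The share of the list called was 60%, against 17.6% of all probe sets, but the list was corrected after values were seen. AT1G25550 (HHO3) went from 6.41, 6.47 and 6.40 log2 to 7.78, 8.24 and 7.74 log2, by 1.49 ± 0.12 log2 (2.82-fold, adjusted p = 2.9e-07). AT1G68670 (HHO2) rose by 0.91 ± 0.10 log2 (1.88-fold, adjusted p = 1.4e-05) and AT4G37180 (HHO5) by 0.43 ± 0.10 log2 (1.35-fold, adjusted p = 0.0047). Both HHO2 and HHO3 were lower at 8 h than at 1.5 h of ammonium, by 0.45 log2 (adjusted p = 0.0099) and 0.77 log2 (0.00049). HHO1 (AT3G25790) was at 3.95, 3.67 and 3.84 log2 before nitrogen and 3.85, 3.50 and 3.61 log2 with ammonium, levels not shown to be above background (adjusted p = 0.33). In nitrate roots at 8 h the same probe set stood at 8.74 log2. HHO5 instead stood 1.50 log2 higher with ammonium than with nitrate at 8 h (adjusted p = 2.9e-08). Genes of 6-phosphogluconate dehydrogenase, an enzyme of the pentose phosphate pathway that supplies reductant for nitrite and ammonium use, rose, AT5G41670 (PGD3) by 0.63 ± 0.07 log2 (adjusted p = 1e-05) and AT1G64190 (PGD1) by 0.37 ± 0.06 log2 (0.00057). Both stood lower than with nitrate at 8 h, by 1.18 log2 (adjusted p = 1e-08) and 1.03 log2 (1.3e-08).

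CEP peptides are secreted signals made by roots short of nitrogen, perceived by receptors in the shoot. Of 4 CEP genes 2 fell, 2 were not called and 0 rose (limma, with 3 of 4 below an unadjusted p of 0.05). That is 50% called, against 17.6% of all probe sets, for a list added after values were seen. AT5G66815 (CEP5) went from 6.33, 6.36 and 6.12 log2 to 3.72, 4.81 and 4.78 log2, by -1.84 ± 0.23 log2 (adjusted p = 3.6e-05). AT2G23440 (CEP3) went from 5.59, 5.64 and 5.65 log2 to 3.85, 4.13 and 3.73 log2, by -1.73 ± 0.13 log2 (adjusted p = 1.3e-07). In both genes the groups were apart and the ammonium means lay under 5 log2. At 1.5 h of ammonium the CEP5 probe set was at 5.78 log2 and the CEP3 probe set at 4.25 log2. CEP5 was at 6.75 log2 with nitrate at 8 h, 2.31 log2 above ammonium (adjusted p = 3.4e-06), whereas CEP3 was at 4.23 log2 (adjusted p = 0.13).

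S-adenosylmethionine decarboxylase supplies the aminopropyl groups of the polyamines spermidine and spermine, and its 3 measured genes went in different directions. AT5G15950 fell from 8.94, 9.32 and 9.24 log2 to 6.62, 6.63 and 6.60 log2, by 2.55 ± 0.12 log2 (5.86-fold, adjusted p = 9.3e-10). SAMDC (AT3G02470) rose by 0.34 ± 0.06 log2 (1.26-fold, adjusted p = 0.0016) and AT3G25570 by 0.57 ± 0.11 log2 (1.49-fold, adjusted p = 0.0014). The fall of AT5G15950 came late, as its level at 1.5 h was 8.79 log2. It stood at 6.34 log2 with nitrate at 8 h (adjusted p = 0.18 between the ions). AT1G73600, a phosphoethanolamine N-methyltransferase gene, also uses S-adenosylmethionine, for the synthesis of phosphocholine. Its levels were 10.21, 10.06 and 10.31 log2 before nitrogen and 8.60, 8.81 and 8.47 log2 with ammonium, a fall by 1.56 ± 0.10 log2 (2.96-fold, adjusted p = 3.8e-08). It was at 10.16 log2 at 1.5 h of ammonium and at 11.08 log2 with nitrate at 8 h, 2.45 log2 above ammonium (adjusted p = 2.7e-10).

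The 3 measured genes of the circadian clock and its outputs rose, with a median of 2.37 log2. That is 100% called, against 17.6% of all probe sets, for a short list corrected after values were seen. COR27 (AT5G42900) and its homologue AT4G33980 (COR28) encode small proteins that feed back on the clock and on responses to cold and light. COR27 went from 3.98, 3.95 and 4.34 log2 to 6.42, 6.86 and 6.94 log2, by 2.65 ± 0.13 log2 (adjusted p = 1.9e-09), and was still at 4.06 log2 at 1.5 h. AT4G33980 rose by 2.37 ± 0.12 log2 (5.17-fold, adjusted p = 2.4e-09). GI, a clock protein that governs flowering time, rose by 0.52 ± 0.08 log2 (1.43-fold, adjusted p = 0.00024). At 8 h none of the 3 was called between ammonium and nitrate, with differences of 0.11 log2 for COR27 (adjusted p = 0.70), -0.17 log2 for AT4G33980 (0.48) and 0.25 log2 for GI (0.051). The mean level of the 3 genes was 5.75 to 5.76 log2 in the samples before nitrogen, 7.39 to 7.73 at 8 h of ammonium and 7.45 to 7.62 at 8 h of nitrate. AT1G56300, a DnaJ-domain chaperone gene, rose late as well, from 4.68, 5.08 and 4.78 log2 to 7.21, 7.25 and 7.30 log2 (2.40 ± 0.11 log2, adjusted p = 7.7e-10), and stood at 5.47 log2 at 1.5 h of ammonium and 7.09 log2 at 8 h of nitrate. Among 5 cold-regulated and dehydrin genes COR27, LTI30 and COR47 rose and 0 fell (limma, with 3 of 5 below an unadjusted p of 0.05). The called share was 60%, against 17.6% of all probe sets, and COR27 is also counted among the clock genes. The dehydrin gene LTI30 rose by 0.94 ± 0.10 log2 (1.92-fold, adjusted p = 6e-06) and lay 1.59 log2 below its level at 1.5 h (6.7e-08).

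PDF2.1 (AT2G02120) encodes a plant defensin, a small secreted antimicrobial protein, and went from 4.05, 3.79 and 4.09 log2 to 8.00, 8.70 and 7.81 log2. The change was by 4.19 ± 0.17 log2 (adjusted p = 3.1e-10), from a level not shown to be above background. At 1.5 h of ammonium it stood at 3.89 log2, and with nitrate at 8 h at 7.31 log2, lower than with ammonium by 0.86 log2 (adjusted p = 0.0033). Of 13 defensin and pathogenesis-related genes 3 rose and 0 fell (limma, with 3 of 13 below an unadjusted p of 0.05), and 9 lay under 5 log2 in both groups. The called share was 23.1%, against 17.6% of all probe sets, and the median change was -0.00189 log2. The other two that rose were LCR69 (AT2G02100, 0.55 ± 0.11 log2, adjusted p = 0.0016) and LCR68 (AT2G02130, 0.43 ± 0.08 log2, adjusted p = 0.00079), defensin-like genes already at 10.95 and 10.88 log2 before nitrogen. All 3 that rose lie together on chromosome 2, where LCR68 is the next RefSeq protein-coding gene after PDF2.1 and 1 gene separates PDF2.1 from LCR69. LCR72, next after LCR68, was at 3.51 and 3.59 log2 (adjusted p = 0.56).

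Of 28 further secreted defence-type genes (glucanases, chitinases, thaumatin-like proteins and protease inhibitors) 8 rose, 3 fell and 17 were not called, with a median change of 0.00828 log2. That is 39.3% called, against 17.6% of all probe sets, for a list added after values were seen. Of the 28, 8 lay under 5 log2 in both groups. AT4G16260, a gene of the family that holds the beta-1,3-glucanases, went from 8.93, 7.76 and 8.75 log2 to 11.04, 11.39 and 10.68 log2, by 2.55 ± 0.38 log2 (5.88-fold, adjusted p = 0.00019). The osmotin gene OSM34 went from 9.36, 8.29 and 9.36 log2 to 10.55, 10.86 and 10.10 log2, by 1.50 ± 0.36 log2 (2.84-fold, adjusted p = 0.0074). The chitinase gene CHI (AT2G43570) went from 8.22, 7.28 and 8.11 log2 to 8.84, 9.83 and 8.52 log2, by 1.19 ± 0.32 log2 (adjusted p = 0.015). In all 3 genes replicate 2 was the lowest sample before nitrogen and replicate 2 the highest with ammonium. CHI was not called without replicate 2 before nitrogen (adjusted p = 0.071) or ammonium replicate 2 (0.077). The protease inhibitor genes AT2G38870 (1.50 ± 0.12 log2, 2.82-fold, adjusted p = 3e-07) and AT1G17860 (1.28 ± 0.12 log2, 2.42-fold, 2.2e-06) rose with tighter replicates, as did AT2G43535, a gene of the trypsin inhibitor and knottin type (1.06 ± 0.13 log2, 2.3e-05), and AT4G36010, of the thaumatin family (1.05 ± 0.12 log2, 1.5e-05). The thaumatin-like gene ATLP-1 (0.60 ± 0.10 log2, adjusted p = 0.0006) and the chitinase-family gene AT1G56680 (0.60 ± 0.14 log2, 0.0064) fell by the sizes given. OSM34 also stood 1.89 log2 above its level with nitrate at 8 h (adjusted p = 0.002).

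Core hypoxia genes, which rise in many plant organs when oxygen is short, included several of the largest rises, and many of them spread widely between replicates. Of 28 measured members 10 rose, 1 fell and 17 were not called (39.3% called, against 17.6% of all probe sets). This list was corrected after values were seen. The median change was 0.961 log2. PDC2 (AT5G54960) encodes pyruvate decarboxylase, the first enzyme of ethanol fermentation. Its levels went from 7.98, 7.57 and 7.35 log2 to 9.78, 10.36 and 10.28 log2, by 2.51 ± 0.41 log2 (5.69-fold, adjusted p = 0.00042). AT4G39675 went from 7.68, 6.79 and 9.07 log2 to 9.55, 10.64 and 11.00 log2, by 2.55 ± 0.57 log2 (5.86-fold, adjusted p = 0.0049). AT1G33055 rose by 2.06 ± 0.49 log2 (4.18-fold, adjusted p = 0.0074), AT3G10020 by 1.37 ± 0.26 log2 (2.58-fold, 0.0016) and AT5G66985 by 1.30 ± 0.22 log2 (2.46-fold, 0.00065). AT4G17670 was the member that fell, by 0.53 ± 0.15 log2 (adjusted p = 0.02), a call lost without replicate 2 before nitrogen or replicate 1 or 2 of ammonium.

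Ammonium replicate 1 stood apart in these genes. It held the lowest of the 3 ammonium values for 25 of the 28 (89.3%), against 32.4% of all probe sets. The mean level of the 28 genes was 7.77 log2 in that sample, 8.71 in each of the other ammonium samples at 8 h, and 7.28, 7.43 and 7.05 before nitrogen. Of the samples before nitrogen, replicate 3 held the lowest value for 18 of the 28 genes, replicate 1 for 4 and replicate 2 for 6. The share over all probe sets was not taken for that group. AT3G29970, a gene of the B12D family, was at 5.56, 5.71 and 5.15 log2 before nitrogen and at 6.12, 9.46 and 9.16 log2 with ammonium (2.77 ± 0.75 log2, adjusted p = 0.016). The calmodulin-like gene CML38 was at 5.09, 6.24 and 4.86 log2 and then at 6.73, 8.49 and 8.30 log2 (2.44 ± 0.66 log2, adjusted p = 0.017). In both, the first ammonium sample lay within 1 log2 of the highest sample before nitrogen, although the groups did not overlap. AT2G17850, at 6.25, 7.25 and 4.72 log2 and then 6.96, 10.07 and 9.92 log2, was not called (2.91 ± 1.07 log2, adjusted p = 0.076), nor was AT5G10040 (2.74 ± 1.11 log2, 0.11). The count of members that rose was 14 without ammonium replicate 1, 6 without ammonium replicate 3, and 7 or 8 when any other sample of the 2 groups was left out. The calls of AT3G29970, CML38 and AT1G19530 (2.34 ± 0.68 log2, adjusted p = 0.026) were lost in several of these fits, with an adjusted p of 0.056 to 0.087 for AT3G29970, 0.057 to 0.076 for CML38 and 0.06 to 0.094 for AT1G19530, and under a variance trend with robust estimation (0.06, 0.061 and 0.082).

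**Figure D3:**
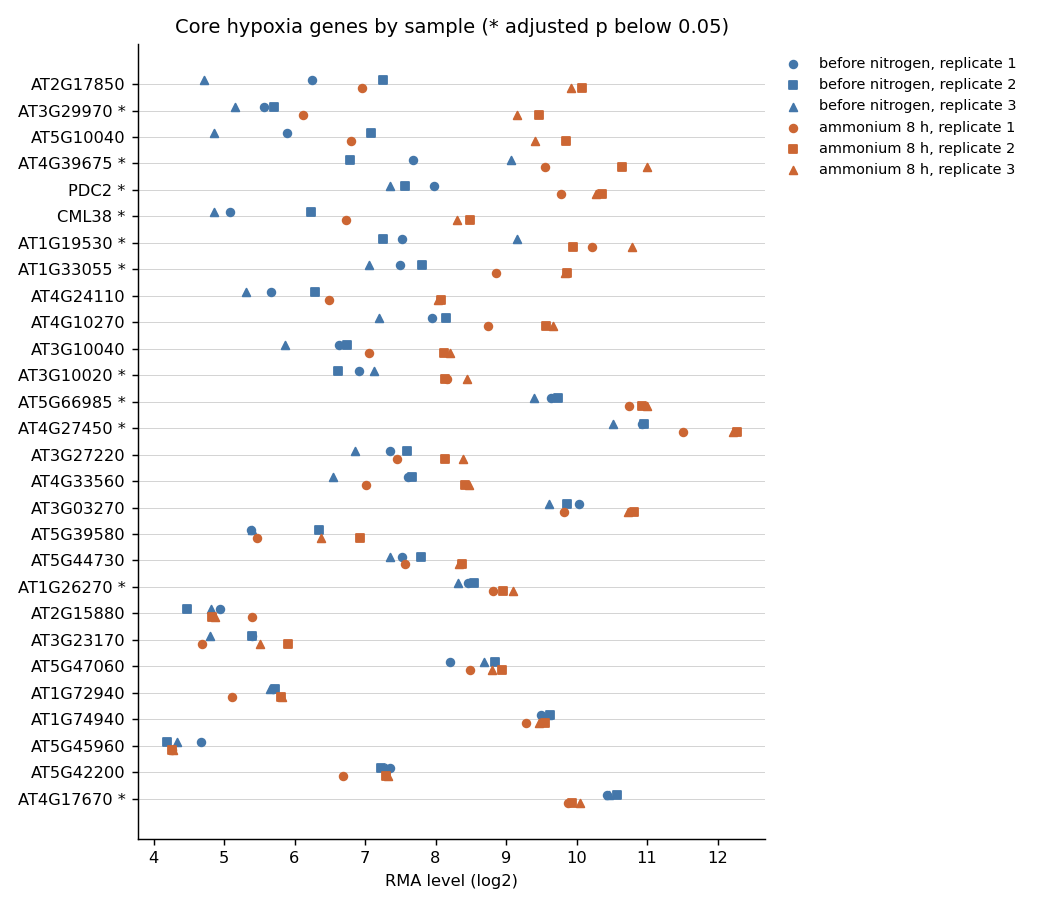
RMA levels (log2) of the 28 measured core hypoxia genes in each sample before nitrogen (upper points of a row) and at 8 h of ammonium (lower points), with the replicate given by the symbol, ordered by the mean change. Ammonium replicate 1, the lower circle of each row, has the lowest ammonium value for 25 genes.

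The wide spread was found in other groups too. The mean level of the 28 hypoxia genes ran from 8.12 to 8.88 log2 over the samples at 1.5 h of ammonium, from 7.15 to 8.64 at 1.5 h of nitrate and from 7.01 to 8.15 at 8 h of nitrate. At 8 h of ammonium 0 members were higher and 1 was lower than at 1.5 h, and 6 were higher and 0 lower than at 8 h of nitrate (limma, adjusted over all probe sets). Over all probe sets 5.82% were higher and 5.64% lower than at 1.5 h, and 5.28% higher and 5.4% lower than with nitrate. Oxygen in the medium and the time taken at harvest are not given in the labels, and their part in these values was not tested. CML38 also responds to touch. Of the other two genes on the touch list, STZ was at 6.83 and 7.19 log2 and AT4G27280 at 8.68 and 8.83 log2, without a call.

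Genes of cell wall loosening fell more often than they rose, as did all probe sets (9.91% lower and 7.72% higher). Of 29 expansin and xyloglucan enzyme genes 9 fell, 1 rose and 19 were not called. That is 34.5% called, against 17.6% of all probe sets. The median change was -0.279 log2, and 6 of the 29 lay under 5 log2 in both groups. XTH16, an enzyme that cuts and rejoins xyloglucan chains, went from 9.35, 9.62 and 9.69 log2 to 8.69, 8.76 and 8.78 log2, by -0.81 ± 0.08 log2 (1.76-fold lower, adjusted p = 6.1e-06). The expansin gene EXPB3 went from 10.35, 9.88 and 10.08 log2 to 9.27, 9.59 and 9.19 log2, by -0.75 ± 0.12 log2 (1.69-fold lower, adjusted p = 0.00043). XTH26 fell by 0.47 ± 0.09 log2 (adjusted p = 0.0022) and EXGT-A3 by 0.45 ± 0.08 log2 (0.00071). EXPA18, the root hair expansin, was the member that rose, by 0.44 ± 0.10 log2 (1.35-fold, adjusted p = 0.0074). Its relative EXPA7 stood at 10.06 and 10.14 log2, without a call. The number that fell was 5 without ammonium replicate 1 and between 6 and 9 when another sample was left out. Of the 7 root hair markers EXPA18 rose and AT2G47540 fell, by 0.45 ± 0.08 log2 (adjusted p = 0.001). That is 28.6% called, against 17.6% of all probe sets.

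Of 18 genes of the polygalacturonase family, which cuts pectin, 3 fell and 0 rose (limma, with 4 of 18 below an unadjusted p of 0.05). That share of called members, 16.7%, lay near the 17.6% over all probe sets, but 7 of the 18 lay under 5 log2 in both groups. The median change was -0.0492 log2. AT2G43890 went from 7.0, 7.42 and 7.47 log2 to 6.31, 6.56 and 6.14 log2, by -0.96 ± 0.16 log2 (1.94-fold lower, adjusted p = 0.00048). Its neighbour on chromosome 2, AT2G43880, fell by 0.82 ± 0.10 log2 (1.76-fold, adjusted p = 3.9e-05), and AT3G59850 by 0.58 ± 0.11 log2 (0.0019). All 3 stood above their level at 1.5 h of ammonium, by 1.05, 0.86 and 0.77 log2, and below their level with nitrate at 8 h, by -1.47, -0.61 and -0.40 log2. Without replicate 2 of the roots before nitrogen 5 members fell. AT5G62360, of the family of invertase and pectin methylesterase inhibitors, rose from 4.91, 4.66 and 4.68 log2 to 7.73, 7.63 and 7.82 log2 (2.98 ± 0.23 log2, adjusted p = 2.2e-07). None of 4 measured pectin enzyme genes was called (limma, with 1 of 4 below an unadjusted p of 0.05).

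**Figure D4:**
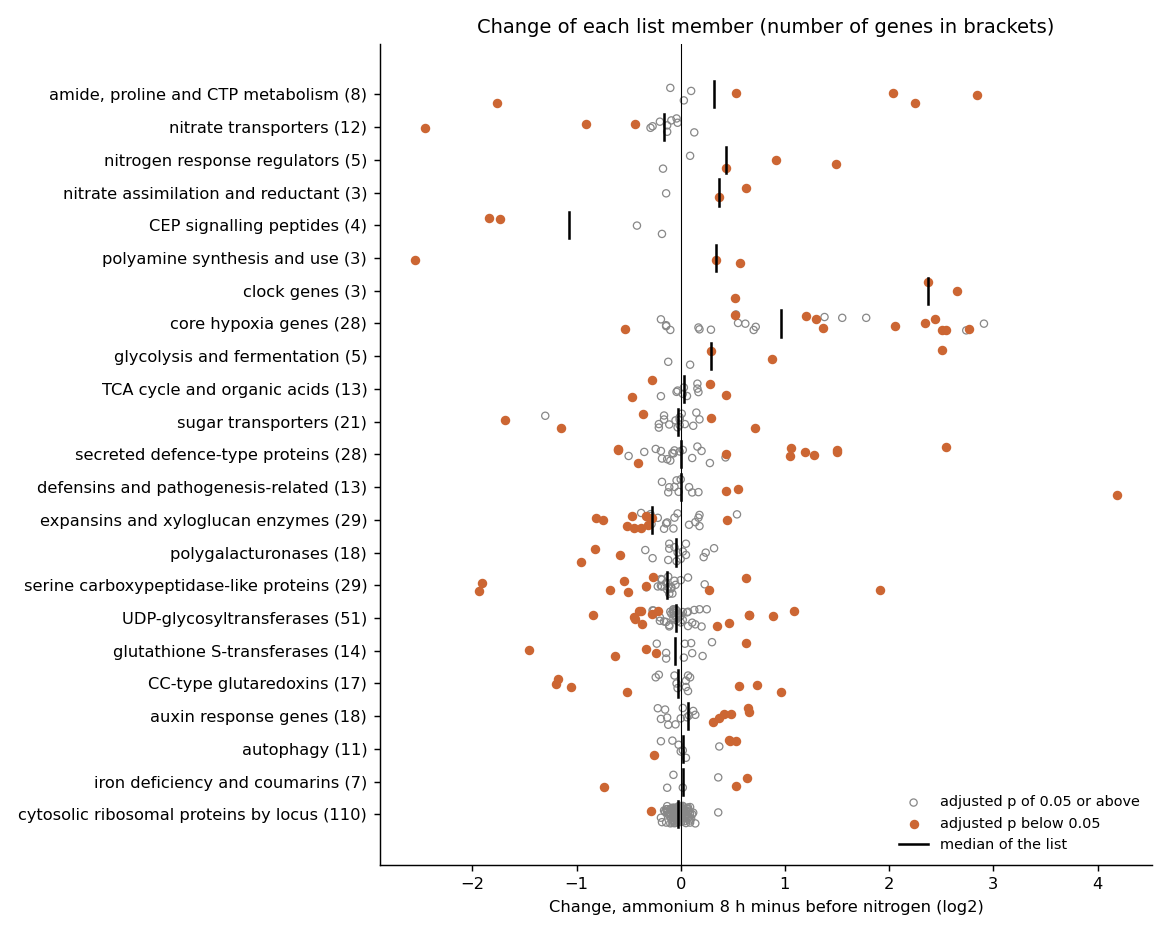
Change (log2, ammonium 8 h minus before nitrogen) of each measured member of 23 gene lists, with filled points where limma's adjusted p was below 0.05, open points elsewhere and a bar at the list's median. The core hypoxia genes reach the right with many open points, the expansins and xyloglucan enzymes lie mostly left of 0, and the 110 ribosomal protein genes stay close to 0.

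Serine carboxypeptidase-like proteins, a family of proteases and of acyltransferases that arose from them, had 29 measured genes. Of these 7 fell, 3 rose and 19 were not called (34.5% called, against 17.6% of all probe sets). This list was added after values were seen. The median change was -0.132 log2, and 9 lay under 5 log2 in both groups. The neighbouring genes scpl22 (AT2G24000) and scpl23 (AT2G24010) fell together. The levels of scpl23 went from 6.63, 6.75 and 6.51 log2 to 4.70, 4.60 and 4.78 log2, by -1.94 ± 0.13 log2 (adjusted p = 3.6e-08). Those of scpl22 went from 6.29, 5.72 and 5.46 log2 to 4.17, 3.66 and 3.93 log2, by -1.91 ± 0.17 log2 (adjusted p = 1.6e-06). Both ammonium means lay under 5 log2, and neither differed from nitrate at 8 h by the test (adjusted p = 0.88 and 0.85). In the other direction scpl31 (AT1G11080) went from 8.47, 8.22 and 8.33 log2 to 10.18, 10.39 and 10.18 log2, by 1.91 ± 0.10 log2 (3.76-fold, adjusted p = 2.1e-09). It stood 0.67 log2 above its level at 1.5 h (adjusted p = 0.00035) and 0.66 log2 above nitrate at 8 h (0.0002).

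Among 21 sugar transporter genes 3 fell, 2 rose and 16 were not called (23.8% called, against 17.6% of all probe sets). Of the 21, 9 lay under 5 log2 in both groups. SWEET14 and SWEET13 belong to the SWEET clade that exports sucrose from cells. SWEET14 (AT4G25010) went from 7.68, 8.09 and 7.97 log2 to 5.77, 6.36 and 6.54 log2, by -1.69 ± 0.18 log2 (3.23-fold lower, adjusted p = 6e-06). SWEET13 (AT5G50800) went from 8.51, 8.47 and 8.49 log2 to 7.04, 7.62 and 7.38 log2, by -1.15 ± 0.13 log2 (2.22-fold lower, adjusted p = 1.4e-05). Both were still at 7.44 and 8.33 log2 at 1.5 h. SWEET11 of the same clade was at 6.82, 6.61 and 7.90 log2 and then at 6.44, 4.55 and 6.44 log2, and was not called (-1.30 ± 0.58 log2, adjusted p = 0.15). The carriers that load hexoses into the vacuole split, as TMT1 rose by 0.71 ± 0.07 log2 (1.63-fold, adjusted p = 4.4e-06) and TMT2 fell by 0.36 ± 0.07 log2 (1.28-fold, 0.0028). The other rise, of SWEET16 (0.29 log2), was lost in 4 of the 6 fits without 1 sample (adjusted p = 0.057 to 0.11).

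The tricarboxylic acid cycle and enzymes that use its citrate were measured by 13 genes, of which 2 rose, 2 fell and 9 were not called. That is 30.8% called, against 17.6% of all probe sets. The NAD-dependent isocitrate dehydrogenase genes IDH-VI (0.43 ± 0.06 log2, adjusted p = 9.8e-05) and IDH-V (0.28 ± 0.07 log2, 0.01) rose. ATP-citrate lyase, which splits exported citrate, had 2 genes that fell, ACLB-1 by 0.47 ± 0.06 log2 (6.2e-05) and ACLA-2 by 0.28 ± 0.07 log2 (0.0099). The calls of IDH-V and ACLA-2 were lost without ammonium replicate 2 (adjusted p = 0.053 each). Of 5 genes of glycolysis and fermentation PDC2, PGM and GAPC2 rose and 0 fell (limma, with 3 of 5 below an unadjusted p of 0.05). The called share was 60%, against 17.6% of all probe sets, and PDC2 is also counted among the core hypoxia genes. Of the 5, 3 stood lower and 0 higher than with nitrate at 8 h. PGM (AT1G78050), which RefSeq names a phosphoglycerate mutase, rose by 0.88 ± 0.09 log2 (1.85-fold, adjusted p = 5.8e-06) and stood 1.64 log2 below its level with nitrate at 8 h (6e-09). GAPC2 rose by 0.29 ± 0.07 log2 (adjusted p = 0.0063) and differed from nitrate at 8 h by -0.33 log2 (0.0035).

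Redox and detoxification families moved in both directions. CC-type glutaredoxins, small thiol proteins peculiar to land plants, had 3 members that rose and 4 that fell of 17, and 8 lay under 5 log2 in both groups. Called members made up 41.2%, against 17.6% of all probe sets. AT5G11930 fell from 8.20, 8.04 and 8.20 log2 to 7.04, 7.03 and 6.78 log2 (-1.20 ± 0.10 log2, 2.29-fold lower, adjusted p = 3.7e-07), and AT4G33040 fell by 1.18 ± 0.11 log2 (2.27-fold, 2.4e-06). ROXY2 rose by 0.73 ± 0.14 log2 (1.66-fold, 0.0013), and AT3G62930 by 0.96 ± 0.17 log2 from a level under 5 log2 (0.00094). The first pair stood above and the second pair below their levels with nitrate at 8 h, by 1.39, 1.70, -0.53 and -1.39 log2. Of 14 glutathione S-transferase genes 1 rose and 4 fell (35.7% called, against 17.6% of all probe sets). GSTU23 (AT1G78320) went from 7.83, 7.84 and 8.00 log2 to 6.40, 6.38 and 6.52 log2, by -1.46 ± 0.09 log2 (2.75-fold lower, adjusted p = 1.2e-08). The neighbouring GSTU22 (AT1G78340) went from 9.07, 9.04 and 9.02 log2 to 9.62, 9.70 and 9.70 log2, by 0.63 ± 0.11 log2 (1.55-fold, adjusted p = 0.00062). ATGSTF13 fell by 0.63 ± 0.09 log2 (0.00019). Without replicate 3 before nitrogen or ammonium replicate 1, 2 members of the family fell.

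Of 51 UDP-glycosyltransferase genes, whose enzymes attach sugars to small molecules, 6 rose, 8 fell and 37 were not called. That is 27.5% called, against 17.6% of all probe sets, with 20 under 5 log2 in both groups. UGT76B1, which acts on salicylic acid and an isoleucine-derived acid in defence, went from 9.59, 9.78 and 9.92 log2 to 10.84, 11.00 and 10.70 log2 (1.09 ± 0.09 log2, 2.12-fold, adjusted p = 6.7e-07). UGT72E2, which acts on lignin precursors, went from 11.22, 11.04 and 10.99 log2 to 10.28, 10.20 and 10.26 log2 (-0.84 ± 0.07 log2, 1.79-fold lower, adjusted p = 9.3e-07). UGT73D1 (0.89 ± 0.17 log2, 0.0013) and UGT87A2 (0.66 ± 0.10 log2, 0.00026) rose. Of 22 cytochrome P450 genes 1 rose, CYP71B26 (0.77 ± 0.15 log2, adjusted p = 0.0016), and 3 fell, CYP71B28 (-1.14 ± 0.08 log2, 1.2e-07), CYP84A4 (-0.66 ± 0.11 log2, 0.00052) and CYP51G2 (-0.50 ± 0.11 log2, 0.0051). The share of P450 genes called, 18.2%, was near the 17.6% of all probe sets, but 12 of the 22 lay under 5 log2 in both groups. The flavonoid list had 3 members, of which 2 fell (66.7% called, against 17.6% of all probe sets). The chalcone isomerase-like gene CHIL fell by 1.36 ± 0.17 log2 (2.57-fold, adjusted p = 4e-05). UGT80B1, on that list for its effect on seed coat colour, encodes a sterol glucosyltransferase and fell by 0.45 ± 0.09 log2 (0.0034). Of 3 glucosinolate genes 2 fell (66.7% called, against 17.6% of all probe sets), on a list added after values were seen. These were BCAT4 (-0.26 ± 0.08 log2, 0.033) and AT2G31790 (-0.31 ± 0.09 log2, 0.026), and both calls were lost in 4 of the 6 fits without 1 sample. Among 7 class III peroxidase genes 2 were called (28.6%, against 17.6% of all probe sets). Prx37 rose by 0.75 ± 0.11 log2 (0.00023) and AT2G41480 fell by 0.31 ± 0.09 log2 (0.021). The latter call was lost without replicate 1 before nitrogen (adjusted p = 0.085) and without ammonium replicate 1 (0.078) or 3 (0.099).

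Of 18 auxin response genes 6 rose and 0 fell (limma, with 7 of 18 below an unadjusted p of 0.05), and 7 lay under 5 log2 in both groups. That is 33.3% called, against 17.6% of all probe sets. GH3 enzymes join auxin to amino acids. WES1 (GH3.5) rose by 0.37 ± 0.06 log2 (1.3-fold, adjusted p = 0.00051) and GH3.3 by 0.65 ± 0.15 log2 between levels not shown to be above background (0.0057). LBD16 and LBD29, transcription factors of lateral root initiation, rose by 0.42 ± 0.09 log2 (0.0046) and 0.48 ± 0.13 log2 (0.014). The call of LBD29 was lost without replicate 1 or 2 before nitrogen (0.061 and 0.05) or ammonium replicate 2 (0.068), and 3 of the 18 rose without replicate 1 before nitrogen. None of 6 response regulators of the cytokinin pathway was called (limma, with 0 of 6 below an unadjusted p of 0.05), and 5 of them lay under 5 log2 in both groups. WRKY22, a transcription factor of immune signalling, rose by 0.56 ± 0.11 log2 (adjusted p = 0.0029). It was the one call among 7 WRKY genes (14.3%, against 17.6% of all probe sets). Without replicate 1 before nitrogen 3 of the 7 rose.

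ATG8 proteins coat the membranes of autophagosomes, which carry cell contents to the vacuole. Of 11 autophagy genes 3 rose and 1 fell (36.4% called, against 17.6% of all probe sets). ATG8H rose by 0.53 ± 0.08 log2 (1.45-fold, adjusted p = 0.00026) and ATG8D by 0.46 ± 0.08 log2 (1.37-fold, 0.001). ATG8B (0.47 ± 0.15 log2, 0.041) lost its call in 5 of the 6 fits without 1 sample (adjusted p = 0.055 to 0.18) and AT5G66930 (-0.26 ± 0.07 log2, 0.02) in 4 of 6 (0.06 to 0.078). Of 7 genes of iron deficiency and coumarin synthesis 2 rose and 1 fell (42.9% called, against 17.6% of all probe sets). AT1G74770, a ubiquitin ligase gene of the BTSL type that restrains iron uptake, rose by 0.64 ± 0.08 log2 (1.56-fold, 3.4e-05). AT3G13610, the gene of the coumarin enzyme feruloyl-CoA 6'-hydroxylase, rose by 0.53 ± 0.08 log2 (1.44-fold, 0.00017) and stood 0.65 log2 above nitrate at 8 h (2.7e-05). BHLH101, a regulator that iron shortage raises, fell by 0.74 ± 0.12 log2 between levels under 5 log2 (0.0004).

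Of 110 cytosolic ribosomal protein genes 1 was called (0.909%, against 17.6% of all probe sets), AT3G57490, which fell by 0.29 ± 0.09 log2 (adjusted p = 0.035), and the median change was -0.0289 log2. That call was lost in 4 of the 6 fits without 1 sample (adjusted p = 0.088 to 0.14). Of 5 core histone genes 2 fell (40% called, against 17.6% of all probe sets). These were HTB1 (-0.36 ± 0.07 log2, 0.0016) and HTB2 (-0.32 ± 0.09 log2, 0.017), the latter call lost without replicate 2 before nitrogen (0.067) or ammonium replicate 3 (0.079). Of 10 genes that respond to mitochondrial dysfunction 2 were called (20%, against 17.6% of all probe sets). AT2G04070, of the MATE transporter family, rose by 0.79 ± 0.15 log2 (0.0017) and AT5G14730 by 0.36 ± 0.11 log2 (0.034). The latter call was lost in 4 of the 6 fits without 1 sample (0.083 to 0.12). None of 5 sulfate uptake and assimilation genes was called (limma, with 1 of 5 below an unadjusted p of 0.05). None of 5 cation exchanger and proton pump genes was called either (0 of 5), but 4 of these lay under 5 log2 in both groups.

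The remaining large changes belong to genes of several kinds. AT3G16560, a protein phosphatase 2C gene, rose from 6.04, 6.27 and 5.82 log2 to 8.30, 8.57 and 8.55 log2 (2.43 ± 0.11 log2, 5.39-fold, adjusted p = 9.7e-10). AT2G20670, of a family with a domain of unknown function, rose from 7.47, 7.17 and 7.51 log2 to 9.66, 9.87 and 9.74 log2 (2.38 ± 0.11 log2, 5.2-fold, adjusted p = 5.3e-10). AT3G45730 rose from 5.23, 5.0 and 5.08 log2 to 7.59, 7.44 and 7.32 log2 (2.34 ± 0.19 log2, 5.08-fold, adjusted p = 4.7e-07). In all 3 the samples with ammonium lay well above those before nitrogen. Among the falls, AT2G40250, a GDSL-type lipase gene, went from 7.06, 7.49 and 7.54 log2 to 4.63, 4.80 and 4.60 log2 (-2.69 ± 0.12 log2, adjusted p = 4.6e-10). AT1G22160, of the FCS-like zinc finger family, went from 9.90, 9.65 and 9.82 log2 to 7.69, 7.40 and 7.61 log2 (-2.23 ± 0.09 log2, 4.68-fold lower, adjusted p = 2.5e-10). AT1G64590, a short-chain dehydrogenase gene, went from 12.41, 12.11 and 12.20 log2 to 10.44, 9.80 and 10.05 log2 (-2.14 ± 0.15 log2, 4.41-fold lower, adjusted p = 1.1e-07). AT1G04330 (-1.93 ± 0.11 log2), AT4G00670 (-1.55 ± 0.14 log2) and AT4G15430 (-1.55 ± 0.10 log2) complete the largest falls, the first of them to a mean under 5 log2.

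The early and late samples of the ammonium supply were compared directly, and 2606 probe sets (11.5%) were called, 1324 higher (5.82%) and 1282 lower (5.64%) at 8 h. With each sample centred on its median 39.7% of the calls were higher at 8 h, against 50.8% as deposited. Of the 16 genes with the largest rises over the roots before nitrogen, 6 stood higher at 8 h than at 1.5 h, 1 lower (AT2G20670, by -0.85 log2, adjusted p = 8.8e-05) and 9 were not called. Of the 16 with the largest falls, 15 stood lower at 8 h than at 1.5 h and CEP3 was not called. A pair of probe sets for which the annotation lists no gene fell furthest of all against the roots before nitrogen, and most of that fall came between 1.5 h and 8 h (-3.57 and -2.93 log2). Their levels went from 10.09, 10.18 and 10.05 log2 to 5.46, 5.67 and 5.94 log2 (-4.41 ± 0.18 log2, adjusted p = 3.2e-10) and from 8.77, 8.53 and 8.54 log2 to 4.33, 3.91 and 4.20 log2 (-4.47 ± 0.13 log2, 6.7e-12). This fall was not particular to ammonium, as the changes at 8 h of nitrate were -4.13 and -4.24 log2. Neither probe set was called between the ions at 8 h (limma, adjusted p = 0.43 and 0.35). A further pair without a listed gene rose most, by 4.42 ± 0.17 log2 (adjusted p = 1.9e-10) and 4.40 ± 0.19 log2 (5.3e-10), both from levels under 5 log2. Ammonium minus nitrate at 8 h was 3.09 log2 for the former (adjusted p = 6e-09) and -0.63 log2 for the latter (0.049).

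At the same time of 8 h, 2430 probe sets (10.7%) were called between ammonium and nitrate, 1202 higher (5.28%) and 1228 lower (5.4%) with ammonium. With each sample centred on its median the calls were 960 higher and 1349 lower, 41.6% higher against 49.5% as deposited. Among the 16 largest rises 5 stood higher and 2 lower with ammonium, and 9 were not called. AT2G48080 and AT3G16560 were the 2 that stood lower, by -1.13 log2 (adjusted p = 3.3e-07) and -1.30 log2 (1e-06). Among the 16 largest falls 6 stood higher with ammonium, 3 stood lower and 7 were not called. NRT2.5 (3.60 log2), AT5G04120 (2.60 log2), AT1G64590 (1.91 log2) and AT1G22160 (1.44 log2) were higher with ammonium, while AT1G73600 (-2.45 log2), CEP5 (-2.31 log2) and AT4G15430 (-0.59 log2) were lower. The counter-ion of neither supply was stated, and ion and counter-ion cannot be told apart. Nitrate at 8 h against the roots before nitrogen gave 4689 called probe sets (20.6%), 2031 higher (8.93%) and 2658 lower (11.7%). That comparison shares its 3 samples before nitrogen with the one of ammonium.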

How the data were processed

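Total RNA of pooled roots was labelled with biotin and hybridised to 15 ATH1 arrays (5 groups of 3). The authors deposited log2 RMA values. RMA and limma are named, without versions, per the submitters' processing notes. Their range (2.45 to 13.96) fits a log2 unit. Scan files were not used here, and the background correction was taken as it stands. All 22746 probe sets were kept. The annotation gave 1 gene for 13513, several for 503 and none for 8730. RefSeq (TAIR10.1) matched 13436 of the first, and symbols are RefSeq's. Names in brackets and roles of loci without a symbol are background knowledge. For 147 genes with several probe sets the one with the highest mean was used.

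Limma 3.58.1 (R 4.3.3) was fitted with 5 group means over all 15 samples (two-sided tests, 10 residual and 5.11 prior degrees of freedom), and p-values were adjusted by Benjamini-Hochberg over all probe sets within each of 5 contrasts. The procedure was also run on simulated data, whose outcome is not given here, and no result rests on it. The contrasts of ammonium at 8 h share its 3 samples. Replicates are labelled biological, though separate cultures are not stated, so p-values measure the spread between these samples.

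Members and gene lists were chosen with earlier results of these data known. Lists of CEP peptides, serine carboxypeptidase-like proteins, phosphoethanolamine methyltransferases, polygalacturonases, defence-type proteins, glucosinolates, ribosomal proteins and amide metabolism were added, and the hypoxia, clock, regulator and sulfate lists corrected, after values were seen. The called shares of all these lists are therefore descriptive and not a test of the lists. Named genes were the 16 largest rises and falls among called genes without overlap, up to 4 called members of each list taken by adjusted p (where none was called, the one with the smallest p), and the 2 largest rises and 2 largest falls without a listed gene. Further list members are given as values. Alternatives were a second quantile normalization, median centring, only the groups compared, a variance trend with robust estimation, array weights, a filter at 5 log2, only probe sets with 1 gene, the replicate number as a block, and each replicate left out. Figures were drawn with matplotlib 3.10.9 in Python 3.11.15.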

Additional observations from a re-analysis of the deposited data

Results flagged for a closer look

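For 9 named genes the change against the roots before nitrogen was called in opposite directions for the ions at 8 h, and the difference between the ions was itself called by limma. The difference, ammonium minus nitrate, was 2.85 log2 for GSTU22 (AT1G78340, 0.63 with ammonium and -2.22 with nitrate), -2.45 for AT1G73600 (-1.56 and 0.89) and 1.6 for UGT73D1 (AT3G53150, 0.89 and -0.72). It was 1.5 for HHO5 (AT4G37180, 0.43 and -1.06), -1.47 for the polygalacturonase-family gene AT2G43890 (-0.96 and 0.51) and 1.3 for the MATE transporter gene AT2G04070 (0.79 and -0.51). It was 1.28 for AT5G14730 (0.36 and -0.92), 0.95 for UGT87A2 (AT2G30140, 0.66 and -0.3) and 0.73 for WES1 (AT4G27260, 0.37 and -0.35). The adjusted p of the difference ran from 7.3e-11 to 2.2e-05 over these genes. The changes of both ions share the 3 samples before nitrogen, which do not enter the difference between the ions. Of all 22746 probe sets 108 were called in this way.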

How the results depend on the processing

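The replicate numbers were not taken to pair the samples. Deviations from the group means of same-numbered samples before nitrogen and at 8 h of ammonium correlated at 0.19, -0.044 and 0.038, and not all were above 0.1. Replicates 1 and 3 before nitrogen each matched the ammonium sample of their own number best, while replicate 2 matched ammonium replicate 3 best. The replicate block gave 4457 called probe sets against 4008. Array weights, which give most weight to replicate 3 before nitrogen, gave 6631. All list members come from the 13513 probe sets of 1 gene. With only these tested, the counts were 2020 called, 174 at least 2-fold, 1265 against 1.5 h and 1190 against nitrate. Leaving out each replicate in turn gave 3158 to 3786 called, 355 to 390 at least 2-fold, 1766 to 2080 against 1.5 h and 1817 to 2199 against nitrate. The other settings gave 2865 to 4307 called probe sets.

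Of 122 named probe sets 118 were called, 102 of them under every alternative and 16 not in at least 1, and none changed direction with a call. The count of hypoxia genes called, 11, ran from 7 with a variance trend and robust estimation to 18 with array weights, where AT1G19530 lost its call (1.34 log2, adjusted p = 0.11). Array weights also raised the sugar transporters called from 5 to 10, the nitrate transporters from 3 to 6 and the auxin genes from 6 to 10. The cause of these shifts was not tested. Low levels limit what can be read for genes near the lower quartile, for which no detection call was used.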
